A study of Mus musculus with 151 samples.

Results

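The genes described here encode the cholinergic receptor and the potassium channel of the efferent synapse on cochlear hair cells: *Chrna9*, *Chrna10*, *Chrna1*, *Chrnb1*, *Chrng* and *Kcnn2*. They were taken by name and not by a cut on a measured value, although earlier results of these data were known. All 6 were found among the 55291 genes of the count table. Their counts were read in 151 single cells from the cochlea of C57BL/6 mice, each amplified with a Smart-Seq kit and sequenced as its own library. The 55 P14_WT IHCs were wild-type inner hair cells (IHCs) of postnatal day 14 and the 50 P30_WT IHCs were IHCs of postnatal day 30, and both came from mice of the genotype vGlut3-P2A-iCreER/+; Ai9/+. The 46 P14_iOHCs were IHC-derived cells of postnatal day 14 that resembled outer hair cells (OHCs), from vGlut3-P2A-iCreER/+; Tbx2 flox/-; Ai9/+ mice, in which 1 *Tbx2* allele was absent from the germline and the other was deleted by Cre.

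Several features were shared by all 3 groups. All mice carried the tamoxifen-inducible Cre driven by the vGlut3 gene (*Slc17a8*) and the tdTomato reporter Ai9, and all were given tamoxifen shortly after birth, so the wild-type IHCs were also exposed to Cre and tamoxifen. Cells were picked by hand from the tdTomato+ cells, and for the P14_iOHCs the smaller cells were taken and larger ones were left, so these cells do not stand for every cell that lost *Tbx2*. The labels name no mouse behind any cell. Each group was therefore taken as 1 sample, no p-value is given, and each ± is the SD over cells, which mixes differences between cells with those between mice and libraries.

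Cochlear hair cells receive acetylcholine from efferent fibres of the brainstem. The receptor is a pentamer of α9 and α10 nicotinic subunits, encoded by *Chrna9* and *Chrna10*, through which calcium enters the cell. That calcium opens the small-conductance potassium channel SK2, encoded by *Kcnn2*, and the potassium outflow inhibits the cell. Mature OHCs keep this synapse as their main efferent input, whereas IHCs are contacted directly by efferent fibres mainly before the onset of hearing and lose most of these contacts afterwards. *Chrna1*, *Chrnb1* and *Chrng* encode the α1, β1 and fetal γ subunits of the nicotinic receptor of skeletal muscle, and muscle-type subunits are known in hair cells as transcripts whose place at this synapse is less clear.

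Total counts ranged from 4326416 to 25035444 per cell. They fell into a lower set of 16 P14_WT IHCs, 12 P14_iOHCs and 23 P30_WT IHCs with at most 10267217 counts, and an upper set of 39, 34 and 27 cells with at least 11814928. The cells of the lower set were those numbered 1 to 16 of the P14_WT IHCs and 1 to 23 of the P30_WT IHCs, so the set followed the cell numbers of the labels in the wild-type groups, and what the numbers stand for is not said there. Levels are given as counts per 1000000 of the cell's total (CPM). A gene without a count could have had up to 3 counts by chance of sampling, or 0.120 to 0.693 CPM depending on the cell's total. The markers fitted the group labels: *Slc26a5*, which encodes the OHC motor protein prestin, had counts in 46 of 46 P14_iOHCs, in 2 of 55 P14_WT IHCs and in 2 of 50 P30_WT IHCs. All 4 OHC markers (*Slc26a5*, *Ocm*, *Ikzf2* and *Lbh*) stood over 4-fold higher in P14_iOHCs, 3 of 4 IHC markers (*Slc17a8*, *Otof* and *Slc7a14*) were over 4-fold lower than in P14_WT IHCs, and none of 4 general hair cell markers differed by this size. The targeted gene *Tbx2* was at 260 ± 127 CPM (SD, n = 55 cells) in P14_WT IHCs and at 69.3 ± 87.4 CPM (SD, n = 46 cells) in P14_iOHCs, where counts on all its exons cannot show whether exon 2 was lost.

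The nicotinic members lie apart in the genome (GENCODE M21, GRCm38). *Chrna9* (ENSMUSG00000029205.12) lies at chr5:65934921-65977326 on the plus strand and *Chrna10* (ENSMUSG00000066279.3) at chr7:102111266-102116828 on the minus strand. *Chrna1* (ENSMUSG00000027107.3) lies at chr2:73563215-73580338 on the minus strand, *Chrnb1* (ENSMUSG00000041189.9) at chr11:69784036-69795943 on the minus strand and *Chrng* (ENSMUSG00000026253.14) at chr1:87204657-87212694 on the plus strand. *Chrna10* shares 1025 of its 2628 exon bases with *Art1* on the opposite strand. The kit does not mark strand, so reads from the shared stretch cannot be assigned to either gene.

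RefSeq promoter windows (GRCm38.p6, 250 bases before to 50 after the start of the gene) were found for 5 of the 6 genes, all but *Kcnn2*. They were searched on both strands for the letters AGGTGT, the core of the T-box binding motif, because *Tbx2* encodes a T-box factor. The search was chosen after the expression values were known. The core occurred in the windows of both hair cell receptor subunits, at 2 places for *Chrna9* and 1 place for *Chrna10*, and not in those of *Chrna1*, *Chrnb1* and *Chrng*. The 3 places are given 5′ to 3′ on the strand of the gene, with the core in capitals, because these are the subunits whose levels differed most between P14_iOHCs and P14_WT IHCs.
Chrna9, 221 bases before the start, chr5:65966891-65966920: tgccgtttgcatAGGTGTgggtcggtagct
Chrna9, 53 bases before the start, chr5:65967059-65967088: gggacaatggaaAGGTGTtcagaaacaggg
Chrna10, 128 bases before the start, chr7:102116824-102116853: cccagcaccctcAGGTGTcagtttcagttg
In GENCODE both *Chrna9* places are intronic to longer transcripts that start further upstream, and the core of the *Chrna10* place lies outside the gene. Of 32851 RefSeq windows of this length, 4514 (13.7%) held the core on either strand, so a match of 6 letters is common and is only a description of the sequence.

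*Chrna10*, which encodes the α10 subunit, was the member with the largest difference between P14_iOHCs and P14_WT IHCs. In P14_WT IHCs it ranged from 0 to 120 CPM with a median of 0, and 31 of 55 cells had no count. In P14_iOHCs it ranged from 10.3 to 748 CPM with a median of 242 CPM, and no cell was at 0. The means were 12.5 ± 23.2 CPM (SD, n = 55 cells) and 278 ± 191 CPM (SD, n = 46 cells), a 22.2-fold difference. The groups overlapped in part: 18 P14_WT IHCs reached the range of the P14_iOHCs, and 33 P14_iOHCs lay above every P14_WT IHC. Of the 2530 pairs of a P14_iOHC and a P14_WT IHC, the P14_iOHC had the higher level in 97.5%. The counts summed over cells gave 12.5 CPM (95% exact Poisson interval 12.3 to 12.8) in P14_WT IHCs and 281 CPM (280 to 283) in P14_iOHCs, intervals that cover counting error only because the reads carry no molecular identifiers and many can come from 1 molecule.

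The share of cells with a *Chrna10* count was 43.6% in P14_WT IHCs (24 of 55, 95% Clopper-Pearson interval 30.3 to 57.7%) and 100% in P14_iOHCs (46 of 46, 92.3 to 100%). After each cell was thinned to 4000000 counts, *Chrna10* was still found in 22 of the P14_WT IHCs and in all 46 P14_iOHCs. Of the 24 P14_WT IHCs with a count, 20 had at least 10 counts, the lowest of them at 1.29 CPM. Without molecular identifiers, 10 counts can come from 1 molecule, so this threshold does not give the number of molecules in a cell.

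*Chrna9*, which encodes the α9 subunit, was already abundant in P14_WT IHCs and differed less. Its values there ran from 0 to 606 CPM with a median of 53.5 CPM, and 8 of 55 cells had no count. In P14_iOHCs they ran from 32.5 to 1595 CPM with a median of 389 CPM, and every cell had counts. The means were 151 ± 187 CPM (SD, n = 55 cells) and 406 ± 289 CPM (SD, n = 46 cells), a 2.69-fold difference, and the P14_iOHC was higher in 80.6% of pairs. The ranges overlapped widely: 35 of 55 P14_WT IHCs reached the lowest P14_iOHC, 9 of 55 were above the P14_iOHC median, and 10 of 46 P14_iOHCs exceeded every P14_WT IHC. By medians in place of means the log2 ratio was 2.86 instead of 1.43, and in P14_WT IHCs the mean lay far above the median.

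**Figure D1:**
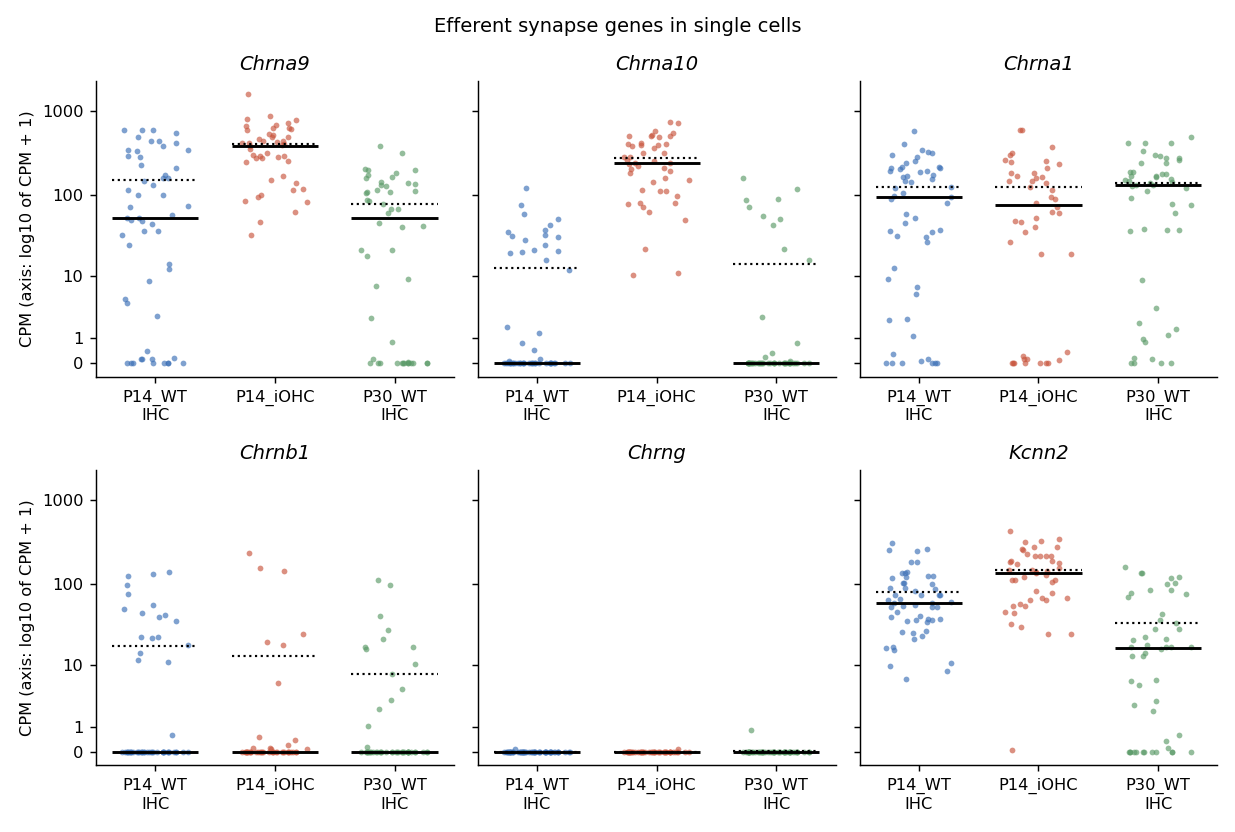
Level of each of the 6 genes in every cell (CPM, vertical axis on the scale log10 of CPM + 1) in P14_WT IHCs, P14_iOHCs and P30_WT IHCs. Each point is 1 cell, the solid bar is the median and the dotted bar the mean, and *Chrna10* has a median of 0 in both wild-type groups and of 242 CPM in P14_iOHCs.

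Both receptor subunits were found together in every P14_iOHC. With at least 10 counts taken as present, *Chrna9* and *Chrna10* were both present in 46 of 46 P14_iOHCs, in 18 of 55 P14_WT IHCs (32.7%, interval 20.7 to 46.7%) and in 10 of 50 P30_WT IHCs (20.0%, interval 10.0 to 33.7%). In the wild-type groups the incomplete pair was nearly always *Chrna9* without *Chrna10*: this held for 24 P14_WT IHCs and 24 P30_WT IHCs, whereas *Chrna10* without *Chrna9* was seen in 2 and 1 cells. With *Kcnn2* added, all 3 genes were present in 45 P14_iOHCs, 18 P14_WT IHCs and 9 P30_WT IHCs. In cells thinned to 4000000 counts the same threshold gave 45, 16 and 9 cells.

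**Figure D2:**
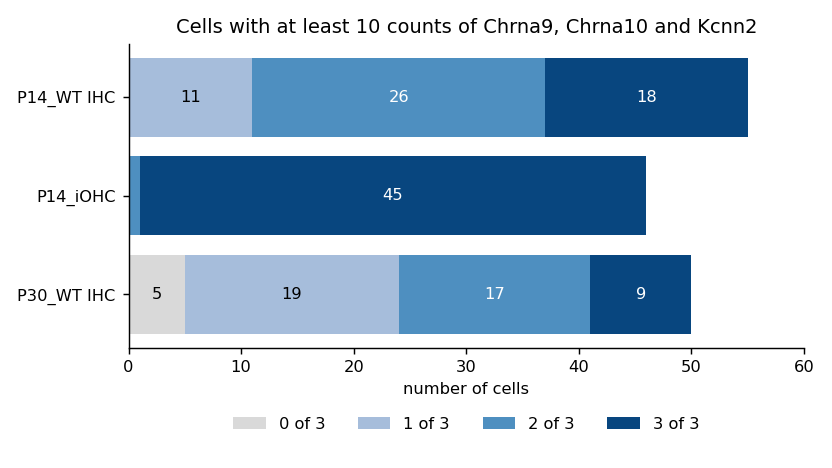
Number of cells (horizontal axis) of each group in which 0, 1, 2 or 3 of *Chrna9*, *Chrna10* and *Kcnn2* had at least 10 counts. All 3 were present in 45 of 46 P14_iOHCs, 18 of 55 P14_WT IHCs and 9 of 50 P30_WT IHCs.

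Within the P14_iOHCs, cells with more *Chrna9* tended to have more *Chrna10*, mainly in the upper set of totals. Spearman's rho between *Chrna9* and *Chrna10* was 0.61 over 46 P14_iOHCs (Pearson's r of log2(CPM + 1) 0.57, and 0.56 once the 2 cells with the most extreme *Chrna9* were left out). It was 0.26 over 55 P14_WT IHCs, with 0.09 in the lower and 0.38 in the upper set. Over 50 P30_WT IHCs it was 0.39, with 0.39 in the lower and -0.03 in the upper set. Many cells of both wild-type groups had no *Chrna10* count. Among P14_iOHCs the rho was 0.24 for the lower set (12 cells) and 0.73 for the upper set (34 cells). These values describe cells that share mice, picking and library preparation, and carry no test.

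**Figure D3:**
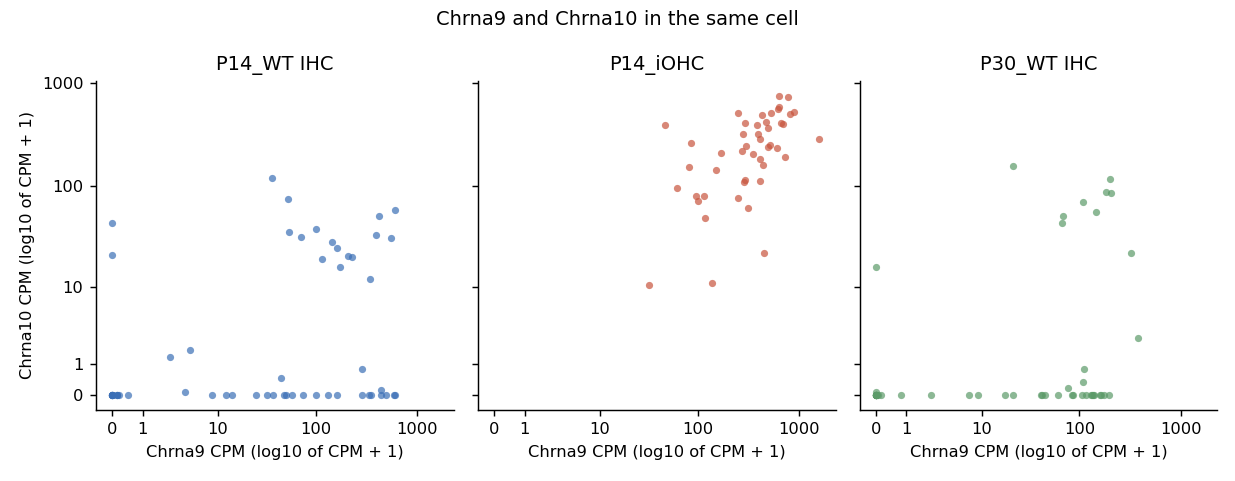
*Chrna10* against *Chrna9* in each cell (CPM, both axes on the scale log10 of CPM + 1), in 1 panel per group. The P14_iOHCs have both subunits in every cell, whereas 24 P14_WT IHCs and 24 P30_WT IHCs had at least 10 counts of *Chrna9* and fewer than 10 of *Chrna10*.

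*Kcnn2* (ENSMUSG00000054477.16), the SK2 channel gene, lies at chr18:45268860-45686024 on the plus strand and shares 284 of its 7468 exon bases with A330093E20Rik on the opposite strand. It was the only member with a count in every P14 cell. It ranged from 6.42 to 304 CPM in P14_WT IHCs with a median of 59.0 CPM, and from 0.0466 to 424 CPM in P14_iOHCs with a median of 137 CPM. The lowest P14_iOHC stood apart with a single count. The means were 79.9 ± 68.2 CPM (SD, n = 55 cells) and 148 ± 98.0 CPM (SD, n = 46 cells), a 1.85-fold difference, and the means lay closer together than the SD of the P14_iOHCs. The P14_iOHC was higher in 72.6% of pairs, and 4 of 46 exceeded every P14_WT IHC.

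In P30_WT IHCs *Kcnn2* was lower and patchy. It ranged from 0 to 157 CPM with a median of 16.3 CPM and a mean of 33.1 ± 43.8 CPM (SD, n = 50 cells), and 12 of 50 cells had no count. The mean was 2.42-fold lower than in P14_WT IHCs, and the P30_WT IHC was the lower cell in 77.4% of the 2750 pairs. Of the P30_WT IHCs, 21 lay below every P14_WT IHC. The share of cells with a count was 76.0% (38 of 50, interval 61.8 to 86.9%) against 100% (55 of 55, interval 93.5 to 100%). The difference was of similar size in both sets of totals: the P30_WT IHCs were at 32.9 CPM (n = 23 cells) against 72.5 CPM (n = 16 cells) in the lower set, and at 33.2 CPM (n = 27 cells) against 82.9 CPM (n = 39 cells) in the upper set.

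*Chrna9* was lower in P30_WT IHCs than in P14_WT IHCs when all cells were taken, but not in both sets of totals. It ranged from 0 to 384 CPM with a median of 53.2 CPM, close to the P14 median of 53.5 CPM, and its mean was 77.7 ± 88.6 CPM (SD, n = 50 cells), 1.94-fold lower than at P14. The P30_WT IHC was the lower cell in 56.8% of pairs. In the lower set the mean was 118 ± 101 CPM at P30 (SD, n = 23 cells) and 107 ± 140 CPM at P14 (SD, n = 16 cells), a difference in the other direction. In the upper set it was 43.6 ± 59.7 CPM at P30 (SD, n = 27 cells) and 169 ± 202 CPM at P14 (SD, n = 39 cells). *Chrna9* had a count in 21 of 23 P30_WT IHCs of the lower set and in 16 of 27 of the upper set.

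*Chrna10* likewise had no single direction between the ages. In P30_WT IHCs it ranged from 0 to 159 CPM with a median of 0 and a mean of 14.4 ± 34.5 CPM (SD, n = 50 cells), against 12.5 ± 23.2 CPM at P14. It was found in 15 of 50 P30_WT IHCs (30.0%, interval 17.9 to 44.6%), against 24 of 55 P14_WT IHCs. In the lower set the means were 27.4 CPM at P30 and 14.1 CPM at P14, and in the upper set 3.23 CPM and 11.9 CPM. In the upper set only 4 of 27 P30_WT IHCs had a count.

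**Figure D4:**
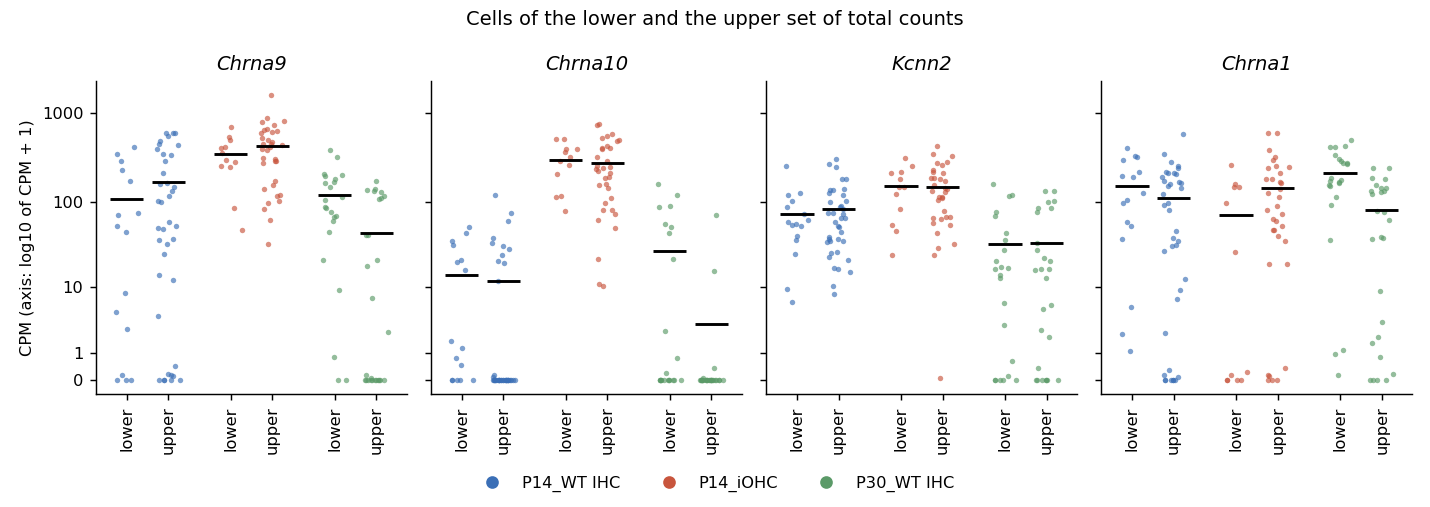
*Chrna9*, *Chrna10*, *Kcnn2* and *Chrna1* in each cell (CPM, vertical axis on the scale log10 of CPM + 1) of the lower and the upper set of total counts, by group. Bars are means, and in the P30_WT IHCs *Chrna9* averages 118 CPM in the lower and 43.6 CPM in the upper set, while *Kcnn2* averages 32.9 and 33.2 CPM.

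The difference of the receptor subunits between P14_iOHCs and P14_WT IHCs had the same direction in both sets. *Chrna9* averaged 343 against 107 CPM in the lower set and 428 against 169 CPM in the upper set. *Chrna10* averaged 297 against 14.1 CPM and 271 against 11.9 CPM. *Kcnn2* averaged 150 against 72.5 CPM and 147 against 82.9 CPM.

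Of the muscle-type subunits, *Chrna1* was found in most cells of every group, and its group means differed by at most 1.15-fold. It ranged from 0 to 586 CPM in P14_WT IHCs (median 95.4 CPM), from 0 to 606 CPM in P14_iOHCs (median 76.4 CPM) and from 0 to 499 CPM in P30_WT IHCs (median 131 CPM). The means were 123 ± 128 CPM (SD, n = 55 cells), 124 ± 145 CPM (SD, n = 46 cells) and 141 ± 131 CPM (SD, n = 50 cells), and the ranges of the groups overlapped almost whole. Counts were found in 49 of 55, 39 of 46 and 46 of 50 cells. Within the sets of totals the direction turned: P14_iOHCs averaged 70.0 CPM against 153 CPM in P14_WT IHCs of the lower set, and 143 against 111 CPM in the upper set. P30_WT IHCs averaged 214 CPM in the lower set and 79.5 CPM in the upper set, so the same set that was high in *Chrna9* at P30 was also high in *Chrna1*.

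*Chrnb1*, the β1 subunit, was found in a minority of cells of every group. It had counts in 19 of 55 P14_WT IHCs (34.5%, interval 22.2 to 48.6%), 14 of 46 P14_iOHCs (30.4%, interval 17.7 to 45.8%) and 15 of 50 P30_WT IHCs (30.0%, interval 17.9 to 44.6%). The median was 0 in all 3 groups, with highest cells of 140, 233 and 111 CPM. The means were 17.4 ± 34.7, 13.0 ± 45.2 and 7.51 ± 21.5 CPM (SD, n = 55, 46 and 50 cells). The P14_iOHC mean rested on few cells, since only 7 of them had at least 10 counts.

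*Chrng*, the fetal γ subunit, was found in a single cell of each group. It had 1 count in 1 P14_WT IHC, 2 counts in 1 P14_iOHC and 7 counts in 1 P30_WT IHC, and no count in the other cells. For the P14_iOHCs against the P14_WT IHCs the ratio of the summed levels was 2.23 with a counting interval of 0.116 to 132. For the P30_WT IHCs against the P14_WT IHCs it was 8.45 with an interval of 1.09 to 381, which covers counting error only and rests on 1 cell of each group. *Chrnd* and *Chrne*, the δ subunit and the adult ε subunit of the muscle receptor, were also nearly absent: *Chrnd* had counts in 0, 0 and 1 cells and *Chrne* in 0, 2 and 1 cells.

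Levels of different genes were compared per length, as counts per base of the longest annotated transcript, scaled to 1000000 per cell (TPM). In P14_iOHCs the order was *Chrna9* (400 ± 298 TPM), *Chrna10* (198 ± 135 TPM), *Kcnn2* (71.7 ± 47 TPM), *Chrna1* (51.3 ± 59.4 TPM), *Chrnb1* (11.3 ± 41 TPM) and *Chrng*. In P14_WT IHCs *Chrna9* was at 163 ± 203 TPM and *Chrna10* was at 9.73 ± 18.1 TPM, above *Chrng* alone. In P30_WT IHCs the order was *Chrna9* (79.3 ± 90.1 TPM), *Chrna1* (60.9 ± 56.3 TPM), *Kcnn2* (17.1 ± 22.6 TPM), *Chrna10* (10.7 ± 25.8 TPM) and *Chrnb1* (6.69 ± 19.3 TPM). In each group every pair of neighbours in the order differed by less than the larger of their SDs over cells. With all annotated exons merged as the length, *Kcnn2* and *Chrna1* changed places in P14_iOHCs, and in P30_WT IHCs *Chrna1* stood before *Chrna9* and *Chrna10* before *Kcnn2*.

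The ratio of both subunits shifted more than either order. The mean TPM of *Chrna9* was 16.7 times that of *Chrna10* in P14_WT IHCs, 7.41 times in P30_WT IHCs and 2.02 times in P14_iOHCs. Even so, *Chrna9* was the higher of the pair in 40 of 46 P14_iOHCs by this length. These ratios and this count depend on the length used. With merged exons the P14_iOHC means were closer, at 134 CPM per kilobase for *Chrna9* and 106 for *Chrna10*. The same values were 49.9 and 4.76 in P14_WT IHCs and 25.7 and 5.46 in P30_WT IHCs.

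Against all genes, *Chrna10* alone of the members passed the size used here, an absolute log2 ratio of mean CPM over 2. Between P14_iOHCs and P14_WT IHCs, 15956 genes had a mean of at least 1 CPM in the higher group, of which 14.0% were higher and 9.05% were lower by more than this size. Of the 5 members that passed this filter, 1 was higher and 0 were lower, with log2 ratios of 4.47 (*Chrna10*), 1.43 (*Chrna9*), 0.89 (*Kcnn2*), 0.01 (*Chrna1*) and -0.41 (*Chrnb1*). Of the genes, 6.43% had a larger ratio than *Chrna10*, 18.5% than *Chrna9* and 25.8% than *Kcnn2*. Between P30_WT IHCs and P14_WT IHCs, 7.34% of 15436 genes were higher and 7.44% were lower by this size. The 5 members were at -1.27 (*Kcnn2*), -1.21 (*Chrnb1*), -0.96 (*Chrna9*), 0.20 (*Chrna10*) and 0.20 (*Chrna1*), and none passed it. *Kcnn2* did so by mean log2(CPM + 1), with a difference of -2.44, and *Chrnb1* in the lower set of totals, at -2.56. The P14_WT IHCs serve in both comparisons, so these are not independent.

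**Figure D5:**
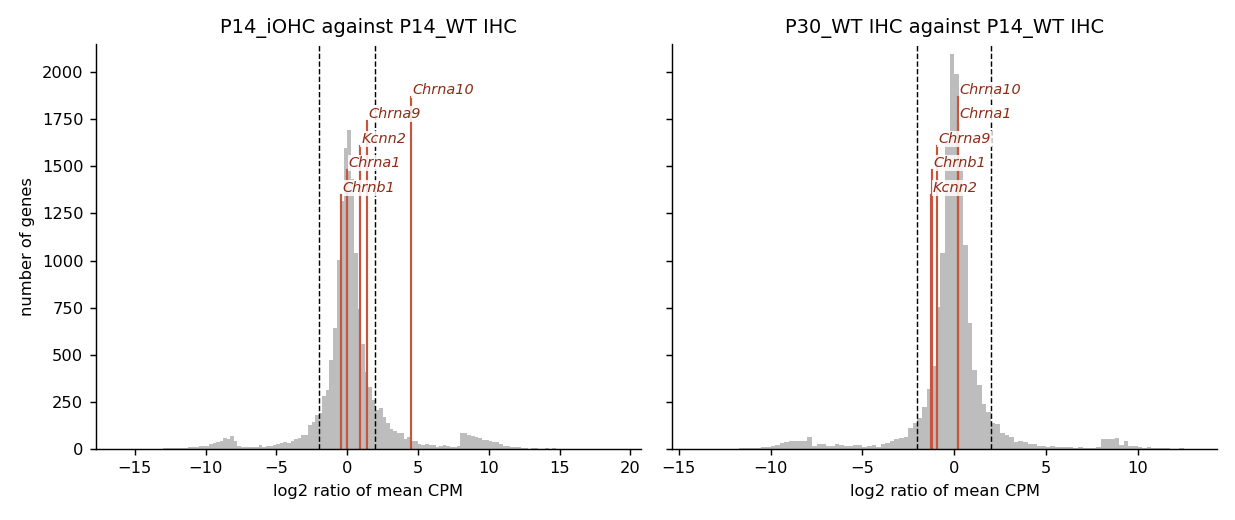
Number of genes (vertical axis) by log2 ratio of mean CPM (horizontal axis) for P14_iOHCs and for P30_WT IHCs against P14_WT IHCs, with 5 members marked in red and dashed lines at -2 and 2. *Chrna10* at 4.47 is the only member outside the lines, and the small side humps hold genes at 0 in 1 group, set to a floor of 3 counts.

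The counts of genes past this size in the lists that follow stand beside 14.0% higher and 9.05% lower over all genes between P14_iOHCs and P14_WT IHCs, and 7.34% and 7.44% between the ages. A gene averaging under 1 CPM in its lower group passed the filter only through the other group, and such genes weigh on these counts and medians. Of the 16 listed nicotinic subunit genes, 8 passed the filter in the comparison of P14_iOHCs with P14_WT IHCs. Of these, 4 were higher and 0 were lower by more than the size used, with a median log2 ratio of 2.21 against 0.10 over all genes. Besides *Chrna10* these were *Chrnb4*, *Chrna2* and *Chrna3*, which passed the filter only through the P14_iOHCs, so this count and median partly follow from the filter. *Chrnb4*, the β4 subunit of autonomic ganglia, had no count in P14_WT IHCs and was at 6.65 ± 16.4 CPM (SD, n = 46 cells) in P14_iOHCs with counts in 17 of them. *Chrna2* had counts in 6 and *Chrna3* in 1 of the P14_iOHCs. *Chrnb2*, the main neuronal β subunit, went the other way within the size used, at 15 ± 26.6 CPM in P14_WT IHCs with counts in 34 of 55, 4.58 ± 12.9 CPM in P14_iOHCs and 7.17 ± 16 CPM in P30_WT IHCs. Between the ages 5 subunits passed the filter, and 0 were past the size used in either direction, with a median of -0.96 against -0.01.

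*Kcnn2* was the only *Kcnn* gene at more than a trace. *Kcnn1*, *Kcnn3* and *Kcnn4* had means of at most 2.50 CPM in any group. The large-conductance channel gene *Kcnma1*, whose BK channel carries the fast potassium current of mature IHCs, had counts in every cell and was at 215 ± 100 CPM in P14_WT IHCs, 115 ± 122 CPM in P14_iOHCs and 329 ± 146 CPM in P30_WT IHCs. Of 5 calcium-activated potassium channel genes that passed the filter, 0 were higher and 1 was lower by more than the size used in each comparison (medians -0.90 and -0.46). In both comparisons it was *Kcnmb2*, a BK channel β subunit. It averaged 17.7 ± 38.9 CPM in P14_WT IHCs with counts in 20 cells, had no count in 46 P14_iOHCs, and was at 0.699 ± 4.89 CPM in P30_WT IHCs with counts in 4 cells, and 0.00800 CPM without the highest of these.

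Calcium store and calmodulin genes differed between P14_iOHCs and P14_WT IHCs in both directions. Of 11 that passed the filter, 3 were higher and 1 was lower by more than the size used (median 0.14). Among the higher ones, *Itpr1* passed the filter only through the P14_iOHCs. *Ryr1*, a ryanodine receptor that releases calcium from internal stores, was at 6.70 ± 31.6 CPM (2.82 CPM without the highest cell) with counts in 7 of 55 P14_WT IHCs, and at 99.2 ± 94.4 CPM with counts in 44 of 46 P14_iOHCs. The inositol trisphosphate receptor genes *Itpr1* and *Itpr2* were at 0.0498 and 4.78 CPM in P14_WT IHCs and at 12.4 and 24.4 CPM in P14_iOHCs, with counts in 16 and 25 of the latter, and without its highest P14_WT IHC each was at 0.00114 and 2.79 CPM there. *Atp2a3*, a pump that returns calcium to the stores, was at 1816 ± 610 CPM in P14_WT IHCs and 353 ± 289 CPM in P14_iOHCs.

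Between the ages, 10 calcium store and calmodulin genes passed the filter, of which 0 were higher and 2 were lower by more than the size used (median -0.05). These were *Ryr1*, at 1.32 CPM with counts in 4 P30_WT IHCs, of which 1 cell held nearly all (0.0193 CPM without it), and *Ryr2*, with no count in P30_WT IHCs and 1.62 CPM in P14_WT IHCs (0.449 CPM without the highest of 5 cells with counts). Few cells held either gene at these ages.

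Among 13 genes for receptor assembly, anchoring and Ly6-type modulators, 9 passed the filter between P14_iOHCs and P14_WT IHCs, of which 4 were higher and 1 was lower by more than the size used (median 0.83). *Ly6e*, which encodes a membrane-anchored Ly6 protein, averaged 60.9 ± 215 CPM in P14_iOHCs with counts in 17 of 46 cells, and 31.8 CPM without its highest cell of 1373 CPM. It was at 0.461 ± 3.21 CPM in P14_WT IHCs. *Ly6h*, a Ly6 protein known to bind nicotinic receptors, was lower in P14_iOHCs, at 0.708 against 6.11 CPM, and at 0.168 CPM without the highest of its 3 P14_iOHCs with counts. The others were *Lypd6b*, *Lypd6* and *Lrp4*, with counts in 7, 4 and 8 P14_iOHCs, and like *Ly6e* they passed the filter only through that group. Without their highest P14_iOHC they were at 1.85, 0.0464 and 0.716 CPM. *Rapsn*, which encodes rapsyn, the scaffold of nicotinic receptors, was found in 6, 8 and 2 cells of the P14_WT IHCs, P14_iOHCs and P30_WT IHCs, and the receptor chaperone gene *Ric3* in 43, 26 and 44 cells. Between the ages 7 genes of this list passed the filter, with 1 higher (*Lypd6b*) and 3 lower (*Agrn*, *Ly6h* and *Rapsn*) by more than the size used (median 0.16). Each of these averaged under 1 CPM in its lower group and passed the filter only through the other, so this count largely follows from the filter. *Agrn* had counts in 8 P14_WT IHCs. The higher *Lypd6b* mean of 3.33 CPM in P30_WT IHCs came from 1 cell and was 0.00457 CPM without it.

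The muscarinic receptor gene *Chrm3*, which encodes a receptor for acetylcholine that signals through G proteins, was at 79.7 ± 52.3 CPM in P14_WT IHCs, 6.4 ± 16.9 CPM in P14_iOHCs and 69.8 ± 61.4 CPM in P30_WT IHCs. Every wild-type IHC had counts of it, against 21 of 46 P14_iOHCs, whose mean was 4.22 CPM without the highest cell. It was 1 of 2 muscarinic genes that passed the filter between P14_iOHCs and P14_WT IHCs, of which 0 were higher and 1 was lower by more than the size used (median -2.33). None of 2 passed that size between the ages (median 0.01). Of the enzymes that break down acetylcholine, *Ache* was found in 16, 4 and 25 cells and *Bche* in 7, 13 and 0 cells of the P14_WT IHCs, P14_iOHCs and P30_WT IHCs. Of these 2 genes, 0 passed the size used between P14_iOHCs and P14_WT IHCs (median -0.46), and *Bche* was lower by more than it between the ages (median -5.47), at 5.16 CPM in P14_WT IHCs and 2.08 CPM without the highest of these.

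Markers of the cells that could travel with a picked hair cell were read beside these values. Of 9 efferent terminal markers, the vesicular acetylcholine and choline transporter genes *Slc18a3* and *Slc5a7* were at 0 in all cells, as were *Calcb*, *Th* and *Slc6a5*, and *Chat* had counts in 0, 1 and 1 cells. Of the 2 genes of the list that passed the filter, *Gad1* and *Gad2*, both were lower in P14_iOHCs by more than the size used. *Gad1* passed the filter only through the P14_WT IHCs, where it had counts in 3 cells, at 2.74 CPM against 0.399 CPM in P14_iOHCs. The abundant one was *Gad2*, an enzyme of GABA synthesis, at 55.7 ± 61.9 CPM in P14_WT IHCs, 2.56 ± 6.50 CPM in P14_iOHCs and 46.9 ± 67.7 CPM in P30_WT IHCs. The summed level of the list ranged from 0 to 315 CPM, from 0 to 37.8 CPM and from 0 to 280 CPM. Of 8 skeletal muscle markers, *Myod1* was at 0 in all cells, *Acta1* had counts in 2, 1 and 1 cells, *Ckm* in 1, 2 and 1 and *Des* in 0, 1 and 3 cells, whereas *Tnnt3* was at 24.8 ± 33.2 CPM in P14_iOHCs with counts in 31 cells against 8 P14_WT IHCs, and *Mylpf* was at 9.20 ± 16.7 CPM in P14_iOHCs and 2.56 ± 8.60 CPM in P14_WT IHCs. *Myog* had counts in 19, 12 and 20 cells at means of at most 3.11 CPM. The summed level of the muscle list ranged from 0 to 39.9 CPM in P14_WT IHCs, from 0 to 155 CPM in P14_iOHCs and from 0 to 52.5 CPM in P30_WT IHCs. The part of these genes in the levels of *Chrna1* and *Chrnb1* was not tested.

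Supporting-cell markers moved with the P14_iOHC group. Of 12 markers, 8 were higher in P14_iOHCs by more than the size used, with *Gjb2*, *Gjb6*, *Tectb* and *Epyc* at means of 329, 607, 533 and 412 CPM (262 CPM for *Epyc* without its highest cell), and *Prox1* and *Fgfr3* at or near 0. Their summed level ranged from 0 to 2120 CPM in P14_WT IHCs (median 4.72 CPM), from 0.0691 to 10381 CPM in P14_iOHCs (median 839 CPM) and from 0 to 744 CPM in P30_WT IHCs (median 32.3 CPM). Within the P14_iOHCs the sum went against the members, with Spearman's rho of -0.34 for *Chrna9*, -0.43 for *Chrna10* and -0.34 for *Kcnn2* (n = 46 cells). In the 16 P14_iOHCs above every P14_WT IHC in that sum the means were 282 CPM for *Chrna9*, 186 CPM for *Chrna10* and 109 CPM for *Kcnn2*. In the other 30 they were 472, 327 and 169 CPM. CPM is a share of the cell's total, so these means are not independent of that sum. The part of supporting-cell RNA in the differences from P14_WT IHCs was not tested. Of 5 glial markers 4 passed the filter and were higher in P14_iOHCs by more than the size used. *Mbp*, *Pmp22* and *Pllp* passed it only through the P14_iOHCs, so this count largely follows from the filter. *Sox10* was at 46.5 ± 70.8 CPM in P14_iOHCs and at 2.86 CPM in P14_WT IHCs. The summed level of the glial markers ranged from 0 to 280 CPM against 0 to 77.2 CPM in P14_WT IHCs. Their part in the results was not tested. Of 5 immune markers 1 passed the filter, the complement gene *C1qb*, which was lower by more than the size used in both comparisons. It was at 26.4 ± 34.2 CPM in P14_WT IHCs, 0.208 ± 1.36 CPM in P14_iOHCs and 2.35 ± 11.7 CPM in P30_WT IHCs. The others averaged under 1 CPM in every group, with *C1qa* and *Lyz2* lower and *Cd74* and *Ptprc* higher in P14_iOHCs than in P14_WT IHCs. The part of these markers was not tested either. Of the neuronal markers that passed the filter, 1 of 4 was lower by more than the size used in each comparison, and of the blood markers 0 of 2 passed it between P14_iOHCs and P14_WT IHCs and 1 of 3, higher, between the ages.

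The genes whose levels were most like those of each member were ranked by Spearman's rho of CPM over all 151 cells, against 9869 genes averaging at least 10 CPM in some group. For *Chrna10* they were *Art1* (0.82), *Lrrc30* (0.78) and *Slc26a5* (0.76), and for *Chrna9* they were *Ocm* (0.65), *Hs3st3b1* (0.64) and *Ankrd22* (0.63). *Art1* is the gene that shares exon bases with *Chrna10*, and it averaged 30.5 CPM in P14_iOHCs and 1.74 CPM in P14_WT IHCs. For *Kcnn2* they were *Sri* (0.61), *Efhd2* (0.59) and *Strip2* (0.54). *Sri* encodes sorcin, a calcium-binding protein, and it averaged 571 CPM in P14_WT IHCs, 2263 CPM in P14_iOHCs and 113 CPM in P30_WT IHCs, the same order of groups as *Kcnn2*. The closest genes to *Chrna1* were *Kcna10* (0.42), *Ptprz1* (0.39) and *Scg3* (0.37), and those to *Chrnb1* were *Mcph1* (0.35), *Ube2q1* (0.34) and *Zfp182* (0.31), weak likenesses in sparse counts. These ranks mix differences between groups with those between cells of a group.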

How the data were processed

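Raw counts per gene were deposited by the authors for each cell as whole numbers without normalization. The submitters' processing notes name FastQC 0.11.9, Trimmomatic 0.39, HISAT2 2.1.0, StringTie 1.3.5, HTSeq 0.10.0 and the build mm10, and the paper's methods align reads with HISAT2 and count them with HTSeq. The strand setting and the treatment of ambiguous reads are not given in the sources used here.

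Each cell was assigned to its group by its label, and no pair of the 151 cells had identical counts. CPM is the count over the cell's total times 1000000, averaged over cells. For ratios over all genes, a mean of at least 1 CPM in the higher group was required and a group at 0 was set to 3 counts of its summed total. No test between groups was made because each group counts as 1 sample. TPM used GENCODE M21 lengths. Shares have Clopper-Pearson intervals and sums exact Poisson intervals, both at 95%. Both cover counting error only, and the intervals of shares treat cells as independent and leave out differences between mice. Thinned cells were drawn to 4000000 counts with a fixed seed. The script for the ratios was checked on simulated counts with known folds. The members, lists and alternatives were chosen with earlier results of these data known. Named genes are the members, the 3 most alike genes of each, and genes drawn from those past the size used in the lists and from the markers. *Chrnb2*, *Chrnd*, *Chrne*, *Kcnma1*, *Ric3*, *Ache* and the other *Kcnn* genes were added after their values were seen. The values of 1 listed gene are not reported here. Tools were R 4.3.3, edgeR 4.0.16, DESeq2 1.42.0 (the last 2 for scaling only), Python 3.11.15, numpy 2.4.6, pandas 2.3.3, scipy 1.17.1 and matplotlib 3.10.9.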

Additional observations from a re-analysis of the deposited data

How the results depend on the processing

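The log2 ratio of *Chrna10* between P14_iOHCs and P14_WT IHCs stayed between 4.40 and 5.91 under 11 alternatives, and that of *Kcnn2* between 0.83 and 1.22 under 12. For *Chrna9* it was positive under all 12, from 1.33 to 3.17, and past the size used under 2 (medians, and mean log2(CPM + 1)). *Chrna1* turned sign in this comparison, from -1.12 to 0.36, and *Chrnb1* from -0.89 to 0.14. Between the ages *Kcnn2* was negative under all 11, from -2.44 to -0.93, and *Chrnb1* under all 10, from -2.56 to -0.42, each past the size used under 1 (mean log2(CPM + 1) and the lower set of totals), while *Chrna9* ran from -1.95 to 0.13, *Chrna10* from -1.88 to 0.96 and *Chrna1* from -0.49 to 0.58. Each of these shifts was smaller than the SD of log2(CPM + 1) over cells, which was 1.35 to 3.26 depending on the gene and comparison. That SD is a spread over cells and not the error of a ratio of means. It also covers the ratios that changed sign, so it does not show that a ratio was stable. Of 108 alternative shares of cells, 19 lay outside the interval of the share reported. The lower and upper sets of totals, split at the widest gap, and the omission of cells high in supporting-cell markers were chosen after seeing the data. The planned split of log totals left a lower set of 2 P14_WT IHCs, which gives no value, and a group median of 0 gives no ratio of medians for *Chrna10* and *Chrnb1*.

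Counts of genes past the size used, P14_iOHC against P14_WT IHC (2236 higher, 1444 lower), were 1069 and 488 with a mean of at least 5 CPM, 5129 and 4103 without a filter, and 3787 and 2703 at a log2 ratio over 1, with 2954 lower in the lower set of totals. Between the ages (1133 higher, 1149 lower) they were 232 and 280, 3385 and 3920, 2325 and 2299, and 1944 and 2140 in the lower set. No paired analysis was possible because the results come from no test. *Chrng* had at most 7 counts in a group, too few to compare at this depth.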

Other observations

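*Ocm*, which encodes oncomodulin, a calcium buffer known from OHCs, also went with *Chrna9* inside the wild-type IHC groups, where both genes varied widely. Over 55 P14_WT IHCs Spearman's rho of *Chrna9* and *Ocm* was 0.51 (Pearson's r of log2(CPM + 1) 0.44, and 0.46 once the 2 cells with the most extreme *Chrna9* were left out), and over 50 P30_WT IHCs it was 0.43. By set of totals it was 0.17 (16 cells) and 0.68 (39 cells) at P14, and 0.46 (23 cells) and 0.19 (27 cells) at P30, so it was not alike in the sets. With *Ocm* the rho of *Chrna10* was 0.42 at P14 and 0.32 at P30, that of *Chrna1* 0.32 and 0.55, and that of *Kcnn2* 0.19 and 0.07. At P30 that of *Chrna10* was 0.63 in the lower and -0.42 in the upper set. In P14_iOHCs, with *Ocm* at 37457 ± 16305 CPM (SD, n = 46 cells), the rho was 0.16 for *Chrna9*. It was 0.43 for *Chrna10*, 0.28 for *Kcnn2* and -0.04 for *Chrna1* there. *Ocm* itself followed the sets in P30_WT IHCs, with means of 1442 CPM in the lower and 423 CPM in the upper set. *Chrna9*, *Chrna10* and *Chrna1* had the same order, as did the IHC marker *Slc17a8* at 1700 and 1041 CPM. The cells of each group share mice, picking and library preparation, and *Slc26a5* was found in 2 cells of each wild-type group.

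P14_iOHCs with more *Tbx2* tended to have less *Chrna10*, with Spearman's rho of -0.41 over 46 cells. Split by totals, it was -0.07 for lower totals (12 cells) and -0.54 for upper totals (34 cells). For *Tbx2* with *Chrna9* the rho was -0.15, and its sign differed by totals, at 0.31 (lower) and -0.33 (upper). The summed supporting-cell markers also ran against *Chrna10* in P14_iOHCs, with a rho of -0.43. The paper describes *Tbx2* expression in neonatal supporting cells close to IHCs. Whether the *Tbx2* counts came from the picked hair cells or from supporting-cell RNA was not tested.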
